A study of Mus musculus with 4 samples.

Results

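Pre-mRNA splicing is carried out by the spliceosome, which is assembled from small nuclear ribonucleoproteins (snRNPs) and many further proteins, and is steered by RNA-binding proteins of the SR and hnRNP families. The 66 genes described here encode such proteins. They were chosen by symbol, with earlier results of these data known, from the autosomal protein-coding genes of GENCODE M21 (mm10). Their names begin with Snrp, Sf3a, Sf3b, Srsf, Hnrnp, Prpf or U2af. The imprinted Snrpn and the X-linked Hnrnph2 were left out. The genes described here are 66 of 20807 autosomal protein-coding genes. These comprise 19 Hnrnp, 13 Prpf, 11 Snrp, 11 Srsf, 9 Sf3 and 3 U2af genes.

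The study mapped chromatin near PML bodies, nuclear structures built by the PML protein, with ALaP-seq. In this assay the peroxidase APEX, here fused to PML by a knock-in allele, places biotin on nearby chromatin when hydrogen peroxide is supplied. The samples were 2 of E14 mouse embryonic stem cells with the APEX-PML knockin that received hydrogen peroxide (H2O2+) and 2 of the same genotype that did not (H2O2-). All were grown with leukemia inhibitory factor, CHIR99021 and PD0325901, which inhibit GSK3 and MEK. The values below come from 1 deposited list of 26496 peaks whose name says that replicates were merged. It holds a position and a width for each peak, with no height, score or value per sample, so H2O2+ and H2O2- cells could not be set against each other, no spread between replicates exists, and sequencing depth is unknown here. Whether a given peak depends on hydrogen peroxide or on PML was therefore not tested.

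The order of splicing gives the families their roles. The U1 snRNP binds the start of an intron, U2AF and the SF3a and SF3b parts of the U2 snRNP recognise its branch point and end, and the U4/U6.U5 tri-snRNP, which holds several PRP proteins, joins to form the catalytic core. The Sm proteins form the ring on the RNA of most snRNPs. SR proteins mostly favour, and many hnRNPs mostly repress, the inclusion of an exon. The core proteins of the spliceosome are needed in every cell type, and pluripotent cells have a splicing programme of their own.

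Promoter peaks were the rule among the splicing genes. A promoter peak is one that overlaps, by 1 bp or more, the stretch within 1 kb of the gene start in either direction, where the gene start is the 5' end of the gene model. One was listed at 54 of 66 members (81.8%, exact 95% interval 70.4 to 90.2%), against 40.3% of all autosomal protein-coding genes. No family was without them: they were present at 12 of 13 Prpf genes, 10 of 11 Srsf genes, 17 of 19 Hnrnp genes, 7 of 9 Sf3 genes, 2 of 3 U2af genes and 6 of 11 Snrp genes. The exact 95% intervals of the families all overlapped, from 23.4 to 83.3% for Snrp and 64.0 to 99.8% for Prpf, so their order is not resolved at these sizes. The share of Snrp genes, 54.5%, had an interval that holds the share of all autosomal genes, as did those of Sf3 and U2af.

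**Figure D1:**
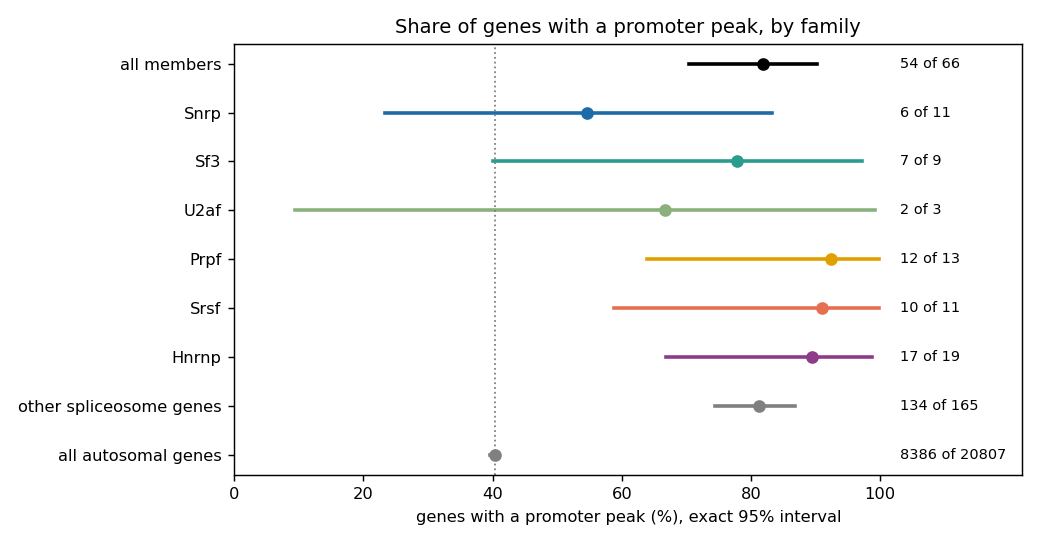
Share of genes with a promoter peak (horizontal axis, percent) for all members, each family, the other spliceosome genes and all autosomal protein-coding genes; points are shares, lines exact 95% intervals, and the dotted line the share of all autosomal genes, 40.3%. The Prpf, Srsf and Hnrnp intervals lie above that line, while the Snrp, Sf3 and U2af intervals cross it.

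The members start in sequence rich in CpG. Over all genes the share with a peak rises with CpG content and levels off at its upper end. Promoter CpG observed/expected, taken over 500 bp either side of the start, had a median of 0.84 among members and 0.57 among all autosomal genes. When all autosomal genes were ordered by it into 10 classes of equal size, 38 of the 66 members fell into the upper classes 9 and 10, and 26 into class 10. Of the 38, 35 had a promoter peak (92.1%, exact 95% interval 78.6 to 98.3%), against 71.3% of all autosomal genes in the same classes. In classes 7 and 8 the count was 17 of 19, against 66.7% and 70.6% of all genes there. The share of all genes was 73.6% in class 9 and 69.1% in class 10. In classes 1 to 3 the count was 0 of 6, against 3.16% of all genes there, though 5 of these 6 had a peak at another annotated start. Of all autosomal genes, 40.3% had a peak at the gene start and 44.5% at any annotated start. The latter share was not computed by class, and members were not matched for their number of annotated starts. What part of the members' excess belongs to CpG content was not tested.

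The median width of the members' promoter peaks was above that of all genes, and 13 of the 17 Hnrnp peaks were above the upper quartile of all genes. The widest promoter peak of a member had a median of 422 bp (quartiles 268.5 and 571 bp, range 114 to 1927 bp, n = 54), and that of all autosomal genes with one 282 bp (quartiles 186 and 423 bp, n = 8386). Of the 54 members, 27 were above the upper quartile of all genes. By family the medians were 548 bp for Hnrnp, 430 bp for Sf3, 426 bp for Srsf, 289.5 bp for Prpf and 259.5 bp for Snrp, and the 2 U2af peaks measured 830 and 472 bp. Above that quartile were 4 of 7 Sf3, 5 of 10 Srsf, 2 of 2 U2af, 2 of 12 Prpf and 1 of 6 Snrp peaks. Pooled in a grouping chosen after these values were seen, among SR protein and hnRNP genes the median was 531 bp (95% interval 361 to 611 bp, n = 27), with 18 of 27 above that quartile. Among Snrp, Sf3, U2af and Prpf genes it was 316 bp (95% interval 229 to 438 bp, n = 27), with 9 of 27 above it. The intervals of the 2 medians overlap between 361 and 438 bp, and the difference was not tested. The SR and hnRNP genes are also the more CpG-rich, with medians of CpG observed/expected of 0.92 against 0.77 for the other 4 families, and 19 of 30 against 7 of 36 genes in class 10. Over the 54 members, width and CpG observed/expected had a Spearman's rho of 0.31, and over all 8386 genes with a peak 0.11; the points share 1 list and its depth.

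**Figure D2:**
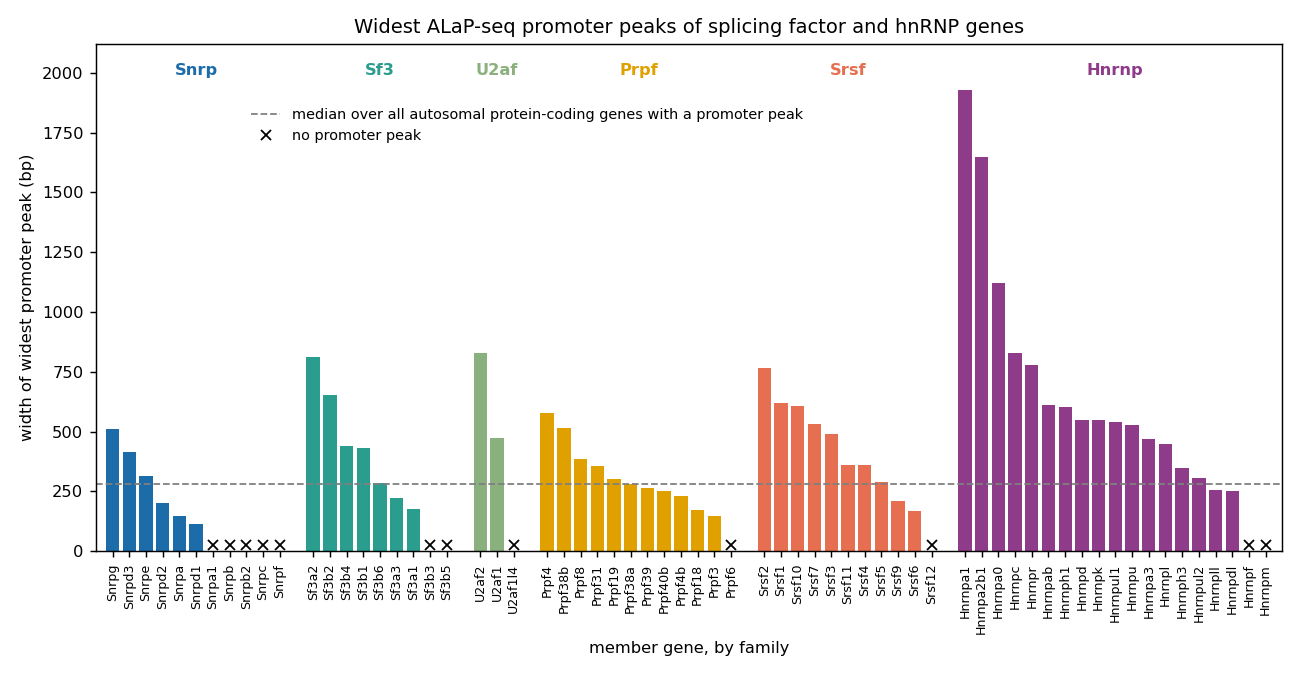
Width in bp of the widest promoter peak of the members named in the text, grouped by family; crosses mark the 12 members without one, and the dashed line the median of all autosomal genes with one, 282 bp. The Hnrnp bars reach 1927 bp, and 15 of the 17 stand above the dashed line.

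The 3 widest promoter peaks of all members were at hnRNP A genes. The hnRNP A and B proteins, with which those of Hnrnpd and Hnrnpdl are grouped here, bind exonic and intronic silencers. All 7 genes of this wider group had a promoter peak, with a median of 611 bp. Hnrnpa1 had a peak of 1927 bp (chromosome 15, 103239187 to 103241113), wider than that of 99.7% of autosomal genes with one, which reaches 1245 bp upstream of the start and 681 bp into the gene, and is shared with the promoter window of Cbx5, the gene of HP1 alpha. Hnrnpa2b1 had one of 1646 bp (chromosome 6, 51469243 to 51470888), shared with Cbx3, the gene of HP1 gamma, and a second of 118 bp. Hnrnpa0, a gene without introns, had a peak of 1123 bp (chromosome 13, 58128312 to 58129434) that no other protein-coding gene shares. Hnrnpab (611 bp), Hnrnpd (549 bp), Hnrnpa3 (470 bp) and Hnrnpdl followed. The widest peak of Hnrnpdl measured 251 bp (chromosome 5, 100038825 to 100039075), the narrowest of the Hnrnp family. Both pairs with an HP1 gene start in opposite directions from 1 CpG-rich region, so these widths cannot be given to one gene of the pair. The printed stretch is the part of the Hnrnpa1 peak nearest its centre that lies outside annotated UTRs (mm10 chr15:103240000-103240299, plus strand), shown because it is the widest peak of all members. Capitals mark matches to the words of the motif search described further on, here a CCAAT box and a GC box.
Hnrnpa1: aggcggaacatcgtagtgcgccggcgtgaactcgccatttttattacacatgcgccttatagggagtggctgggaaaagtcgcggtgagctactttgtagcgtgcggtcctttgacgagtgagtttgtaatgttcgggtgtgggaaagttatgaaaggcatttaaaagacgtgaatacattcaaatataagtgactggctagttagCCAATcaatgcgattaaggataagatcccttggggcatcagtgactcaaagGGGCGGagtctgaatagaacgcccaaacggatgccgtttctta

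The remaining hnRNP genes had peaks of at most 828 bp and varied in where these lay. Hnrnpc, whose protein packages long transcripts, had one of 828 bp, Hnrnpr 780 bp, Hnrnph1 603 bp, Hnrnpk 548 bp, Hnrnpul1 541 bp, Hnrnpu, a scaffold-associated protein gene, 528 bp, Hnrnpl 447 bp, Hnrnph3 346 bp, Hnrnpul2 306 bp and Hnrnpll, a regulator of lymphocyte splicing, 256 bp (chromosome 17, 80062165 to 80062420). In Hnrnpl, Hnrnpk and Hnrnph1 the midpoint of the widest peak lay 551, 932.5 and 933 bp inside the gene model. All 3 had further peaks deeper in the gene, the nearest to a second annotated start being 270 bp from one in Hnrnpl, 5 bp in Hnrnpk and 192.5 bp in Hnrnph1. Hnrnpf and Hnrnpm were the 2 without a promoter peak.

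The SR protein genes had peaks at 10 of 11 members, with a median width of 426 bp. Srsf2, whose protein binds exonic enhancers, had the widest at 764 bp (chromosome 11, 116852800 to 116853563), shared with the divergent Mfsd11. Srsf1 (621 bp), Srsf10 (607 bp), Srsf7 (531 bp) and Srsf3 (491 bp) came next, followed by Srsf4 and Srsf11 with 361 bp each, Srsf5 (288 bp) and Srsf9 (209 bp). Srsf6 had the narrowest, 167 bp (chromosome 2, 162930954 to 162931120), and a second of 147 bp just inside the gene, and its start has the highest CpG observed/expected of all members, 1.14. Srsf12, the member without one, has a start in class 6. The 300 bases upstream of the Srsf2 start (mm10 chr11:116853095-116853394, minus strand) lie inside its peak, and are shown as the widest peak of the family. They hold more matches than any other printed stretch: 5 GC boxes, 1 CCAAT box and 1 TATA box, in capitals.
Srsf2: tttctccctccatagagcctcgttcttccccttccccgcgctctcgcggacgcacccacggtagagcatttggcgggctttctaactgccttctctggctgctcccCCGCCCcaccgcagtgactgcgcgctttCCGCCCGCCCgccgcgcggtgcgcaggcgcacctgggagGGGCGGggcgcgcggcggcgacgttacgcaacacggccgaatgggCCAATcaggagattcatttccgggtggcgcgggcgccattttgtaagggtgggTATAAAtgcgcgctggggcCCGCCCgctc

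The U2 pathway genes were mixed. All 3 SF3a genes had a promoter peak, Sf3a2 with 812 bp (chromosome 10, 80798028 to 80798839), Sf3a3 with 222 bp and Sf3a1 with 175 bp (chromosome 11, 4160192 to 4160366). Of the 6 SF3b genes 4 had one: Sf3b2 (652 bp), Sf3b4 (438 bp), Sf3b1, whose protein contacts the branch point (430 bp), and Sf3b6, the branch point binding p14 protein (284 bp). Sf3b3 and Sf3b5 had none. U2af2, the large subunit that binds the polypyrimidine tract, had 2 peaks, the wider of 830 bp (chromosome 7, 5060887 to 5061716, positions -1256 to -427 from the start) and the other of 251 bp just inside the gene, and U2af1, the small subunit that reads the end of the intron, had 1 of 472 bp (chromosome 17, 31658657 to 31659128) centred on the start. U2af1l4, a paralog of U2af1, had none. The Sf3a2 stretch outside annotated UTRs (mm10 chr10:80798028-80798174, plus strand) begins at the upstream edge of the peak, and that of U2af1 (mm10 chr17:31658893-31659128, minus strand) ends 1 base before the start. They stand for the widest SF3 peak and for the widest U2AF peak of a gene that also has a start in the RefSeq table used. Each holds 1 GC box, in capitals. Only UTRs were left out, so coding sequence can remain. The Sf3a2 stretch lies in a peak shared with Plekhj1 and was not checked for coding sequence of that gene.
Sf3a2: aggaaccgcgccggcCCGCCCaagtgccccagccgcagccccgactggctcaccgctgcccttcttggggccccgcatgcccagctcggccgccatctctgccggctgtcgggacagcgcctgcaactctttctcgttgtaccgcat
U2af1: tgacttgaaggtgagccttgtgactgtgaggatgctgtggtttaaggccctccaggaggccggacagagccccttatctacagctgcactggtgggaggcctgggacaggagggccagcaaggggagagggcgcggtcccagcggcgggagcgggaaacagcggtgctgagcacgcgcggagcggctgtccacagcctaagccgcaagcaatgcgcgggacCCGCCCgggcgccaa

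Genes of the PRP proteins had a promoter peak in 12 of 13 cases, of a width like that of genes in general. The tri-snRNP genes Prpf4 (578 bp, chromosome 4, 62408450 to 62409027), Prpf8 (386 bp), whose protein lies at the catalytic centre, Prpf31 (355 bp) and Prpf3 (147 bp, chromosome 3, 95855841 to 95855987) had one, and Prpf6 did not. All 8 other PRP genes did, among them Prpf38b (514 bp), Prpf19, a ubiquitin ligase (300 bp), Prpf38a (279 bp), Prpf39 (265 bp), Prpf40b (250 bp), the kinase gene Prpf4b (229 bp) and Prpf18, a second step factor (170 bp). The median over the 12 was 289.5 bp, close to the 282 bp of all autosomal genes with a peak. The 154 bases before the Prpf4 start (mm10 chr4:62408643-62408796, plus strand) are shown because they lie in the widest peak of the family. They hold none of the words searched and are wholly in lower case.
Prpf4: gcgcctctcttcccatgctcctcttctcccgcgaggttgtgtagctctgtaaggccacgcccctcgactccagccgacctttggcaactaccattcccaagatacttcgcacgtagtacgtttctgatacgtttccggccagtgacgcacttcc

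Of the Snrp genes, 6 of 11 had a promoter peak, 3 of them wider than 282 bp, the median of all genes with one. Of the 7 genes of the Sm ring, 5 had one: Snrpg (512 bp, chromosome 6, 86371230 to 86371741), Snrpd3 (414 bp), Snrpe (316 bp), Snrpd2 (203 bp) and Snrpd1 (114 bp, with a second of 93 bp at the start). Snrpa, which encodes the A protein of U1, had one of 149 bp with its midpoint 255 bp downstream of the start. Snrpb and Snrpf of the Sm ring, Snrpc of U1, and Snrpa1 and Snrpb2, the A' and B'' proteins of U2, had none. The median width over the 6 was 259.5 bp, and Snrpg was the one above the upper quartile of all genes.

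The Snrpg stretch outside annotated UTRs (mm10 chr6:86371583-86371741, plus strand) is shown as the widest peak of the family. It lies 279 to 437 bp downstream of the start and has an ETS word in capitals. Each of the 438 bp of the peak inside the gene lies in an exon of some annotated transcript of the gene. Exons of all transcript types were pooled, so parts of this stretch can be intronic in other transcripts. Coding sequence was not left out.
Snrpg: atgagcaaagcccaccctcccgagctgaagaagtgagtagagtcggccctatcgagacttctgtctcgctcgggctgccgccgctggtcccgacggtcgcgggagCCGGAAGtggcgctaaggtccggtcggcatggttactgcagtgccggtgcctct

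The 12 members without a promoter peak fell into separate kinds. In 6 of them, Hnrnpf, Hnrnpm, Prpf6, Sf3b5, Snrpa1 and Snrpc, the start of the gene model lies in CpG-poor sequence (observed/expected 0.083 to 0.26, classes 1 to 3), and a peak lies further inside the gene. Repeats, which the mapping masked, covered 2.85 to 70.5% of their promoter windows, the most in Snrpc. Peaks stood at another annotated start in 5 of these: 5 bp from one in Snrpc (peak of 375 bp, chromosome 17, 27839953 to 27840327), 0.5 bp in Hnrnpm (204 bp, 1441.5 bp into the model), 86.5 bp in Snrpa1 (288 bp), 11.5 bp in Prpf6 (408 bp, 9462.5 bp into the model) and 10.5 bp in Hnrnpf (344 bp). Prpf6 also had a peak of 157 bp that begins 1013 bp into the model, just outside the promoter window, whereas the promoter peak that reached least into its window was one of 3 at Hnrnpdl, at positions -1043 to -933 from the start. Sf3b5 has 1 annotated start, and its peak of 142 bp (chromosome 10, 13008515 to 13008656) lies wholly in exonic sequence 3242.5 bp into the model. With any annotated start of the gene, 59 of 66 members (89.4%, exact 95% interval 79.4 to 95.6%) had a peak within 1 kb, against 44.5% of all autosomal genes.

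The other 6, Sf3b3, Snrpb, Snrpb2, Snrpf, Srsf12 and U2af1l4, start in classes 6 to 10 and had no peak at any annotated start. The midpoint of the nearest peak lay 95.1 kb away at Snrpb, which encodes SmB, 54.8 kb at Snrpb2, 47.2 kb at Snrpf, 38.1 kb at Sf3b3, 10.7 kb at Srsf12 and 3.59 kb at U2af1l4. The repeat-masked share of the 1 kb either side of the start was at most 14.3% in the 6, and had a median of 12.4% and a maximum of 29.7% in the 54 members with a peak; the part of masking in the missing peaks was not tested. The sequences upstream of 2 of them are printed for comparison with those above, chosen as the most CpG-rich starts without a peak that are also in the RefSeq table used: Snrpf (mm10 chr10:93589707-93590006, minus strand) with 3 CCAAT boxes on either strand, and Sf3b3 (mm10 chr8:110846813-110847023, minus strand) with a CCAAT box and a TATA box.
Snrpf: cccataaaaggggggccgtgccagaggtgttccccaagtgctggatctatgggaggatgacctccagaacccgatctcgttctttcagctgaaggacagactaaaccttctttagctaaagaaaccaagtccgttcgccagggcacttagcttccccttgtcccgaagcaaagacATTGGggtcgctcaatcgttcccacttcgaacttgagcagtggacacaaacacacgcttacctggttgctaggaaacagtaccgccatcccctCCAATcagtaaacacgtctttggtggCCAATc
Sf3b3: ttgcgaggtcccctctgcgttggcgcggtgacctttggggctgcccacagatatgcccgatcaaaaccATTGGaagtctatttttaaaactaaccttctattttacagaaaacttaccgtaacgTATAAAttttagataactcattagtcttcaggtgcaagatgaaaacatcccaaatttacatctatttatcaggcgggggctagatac

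**Figure D3:**
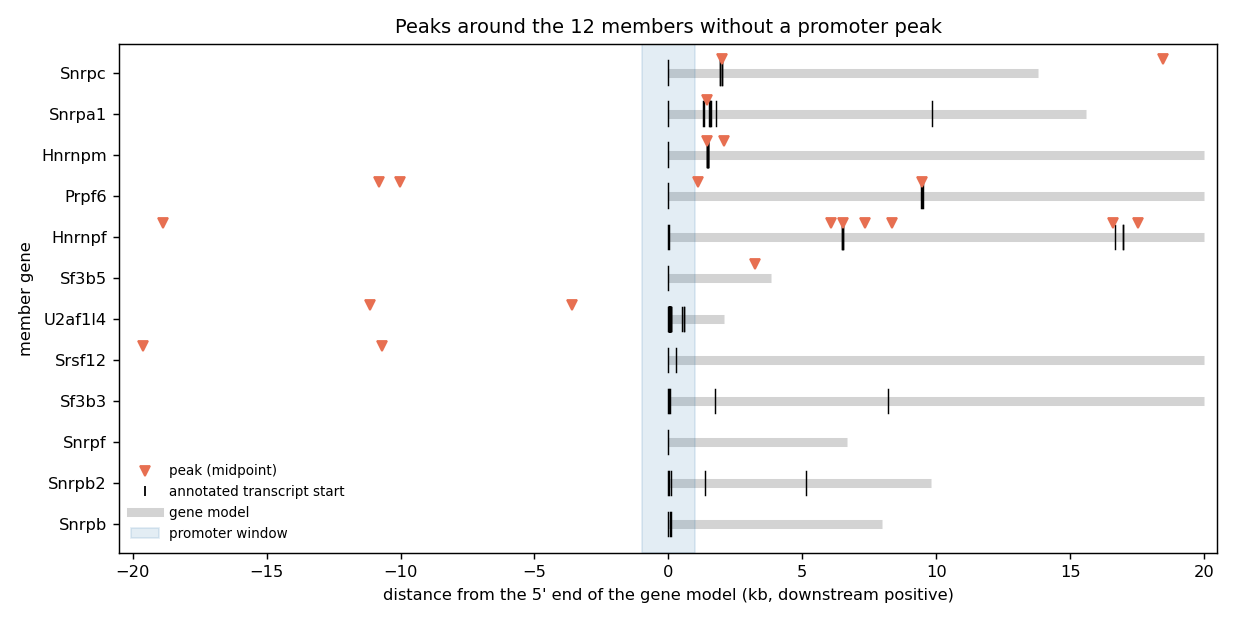
Peaks (triangles, at their midpoints), annotated transcript starts (ticks) and gene models (grey) around the 12 members without a promoter peak, by distance in kb from the 5' end of the model, with the promoter window shaded. In the upper 5 rows a peak stands at a later annotated start, in Sf3b5 one lies 3.24 kb into the gene, and the lower 4 rows hold no peak within 20 kb.

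Most members with a promoter peak had the widest one over the gene start, as did most autosomal genes with one. The widest promoter peak covered the start base itself in 35 of 54 members (64.8%, exact 95% interval 50.6 to 77.3%) and in 56.8% of all autosomal genes with one, and its midpoint lay within 300 bp of the start in 42 of 54, against 78.6% of all genes. The midpoint was upstream in 31 members and downstream in 23, with a median offset of -29.5 bp against -5 bp over all genes. The narrowest of all these peaks, that of Snrpd1 (chromosome 18, 10618001 to 10618114), had its midpoint 282.5 bp downstream. Any peak covered the position 60 bp upstream of the start in 59.1% of members, the highest value of their profile, while the profile of all autosomal genes was highest 20 bp upstream, at 24.2%. At 1 kb upstream the shares were 6.06% of members and 1.15% of all genes.

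**Figure D4:**
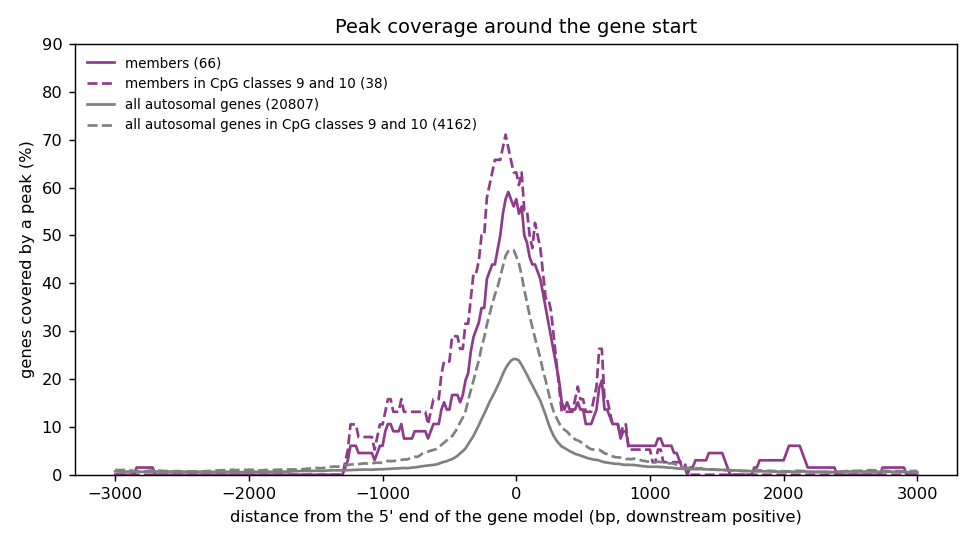
Share of genes covered by a peak (vertical axis, percent) at each position from 3 kb upstream to 3 kb downstream of the gene start, in steps of 20 bp, for members (purple) and all autosomal genes (grey); dashed lines are the genes of CpG classes 9 and 10. The members reach 59.1% and, in classes 9 and 10, 71.1%; all autosomal genes reach 24.2% and 47.0%.

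Some promoters held several peaks. There were 2 or more in 17 of 66 members (25.8%, exact 95% interval 15.8 to 38.0%) against 7.19% of all autosomal genes, and 3 each in Hnrnpdl, Hnrnpul2 and Prpf4b, among others. By family, 2 or more were in 8 of 19 Hnrnp, 3 of 11 Srsf, 3 of 11 Snrp, 2 of 13 Prpf, 1 of 3 U2af and 0 of 9 Sf3 genes. Counted only over genes with a promoter peak, it was 17 of 54 members and 1497 of 8386 autosomal genes. Of the 165 other spliceosome genes described below, 29 (17.6%) had 2 or more. At 20 of the 54 members with a peak (37.0%, exact 95% interval 24.3 to 51.3%) the widest one also lay in the window of another protein-coding gene, as it did in 23.8% of all autosomal genes with one. Partners included Cdc26 at Prpf4, Orc1 at Prpf38a, Plekhj1 at Sf3a2, Lrrc40 at Srsf11 and Rmi1 at Hnrnpk. The 20 shared peaks had a median width of 384 bp and the 34 others 442.5 bp.

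Away from the promoter, members had slightly more peaks than genes in general, and many of these lay at promoters of their neighbours. A distal peak, with its midpoint within 50 kb of the start and outside 1 kb of it, was present for 56 of 66 members (84.8%, exact 95% interval 73.9 to 92.5%) against 63.8% of all autosomal genes, and the median was 2 per member and 1 per gene. Of the 188 distinct distal peaks of members, 89 (47.3%) lay at the promoter of another protein-coding gene, against 33.2% of those of all autosomal genes. Without such peaks the mean was 1.5 per member and 1.39 over all genes. It was 2.43 for SR and hnRNP genes, of which 23 of 30 had one or more, and 0.722 for the Snrp, Sf3, U2af and Prpf genes, of which 17 of 36 had. Of all autosomal genes, 51.1% had one or more. These counts leave out peaks at the 5' ends of gene models only, so peaks at a gene's own later starts remain in them. With neighbours' promoters kept but peaks within 1 kb of every annotated start of the gene left out, the mean was 2.61 per member. Over all genes it was then 2.17, and this setting was not run for the pooled families.

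**Figure D5:**
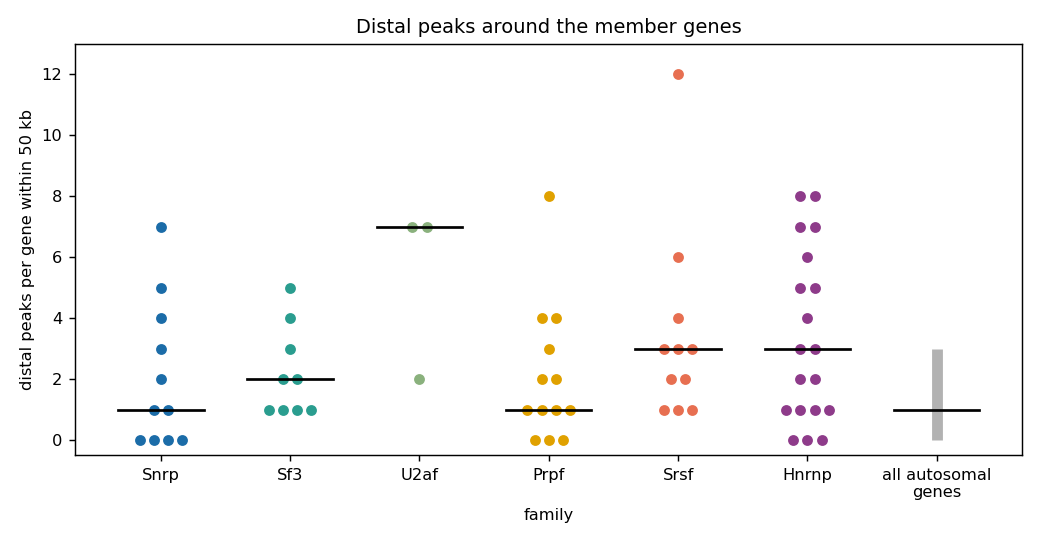
Distal peaks per gene within 50 kb (vertical axis) for each member, by family; points are genes, black lines medians, and the grey bar the quartiles of all autosomal genes, 0 and 3. Srsf3 stands highest with 12.

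The members with the most distal peaks differed in this respect. Srsf3 had 12, of which 10 were downstream and 11 not at a promoter; 10 of the 12 are also distal peaks of Cdkn1a, the p53 target gene that starts 58.3 kb away, so they cannot be assigned to either gene. Hnrnpf had 8, none at another promoter and 6 inside its own gene model. Hnrnpul2 and Prpf3 also had 8, of which 7 and 8 lay at promoters of neighbouring genes. The next value, 7, was shared by Hnrnpab, Hnrnpu, Snrpd2, U2af1l4 and U2af2. Members with 0 included Hnrnpa0, Hnrnpd, Hnrnpll, Prpf18, Prpf4b, Snrpb, Snrpb2, Snrpd3 and Snrpe.

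Peaks inside the members' gene bodies were mostly at further starts. There were 20 such peaks beyond 1 kb of the start in 12 members (18.2%, exact 95% interval 9.76 to 29.6%), against 21.7% of all autosomal genes with one. Of the 20, 16 (80%) lay within 1 kb of another annotated start of the same gene, against 23.1% of the 9430 gene-body peaks of all autosomal genes. The peak in Srsf11 (443 bp, 4999 bp into the model) was one of them; it overlaps 348 bp of annotated exon, including exons of transcripts classed as targets of nonsense-mediated decay, and a start lies 69 bp from its midpoint. The 4 away from a second start were in Sf3b5, Hnrnpr (449 bp, intronic, 6888 bp into the model), Prpf6 and Hnrnpf. Hnrnpf alone held 6 of the 20. Members and all genes were not matched for the number of annotated starts or for gene length. The median length was 13976.5 bp in members and 17629 bp in all autosomal genes.

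A search on both strands for 10 short words that known promoter factors bind covered 300 bases at each start, 250 of them upstream. The shares of members are over all 66, of which 38 are in CpG classes 9 and 10. They were not computed for those 38 alone, so members are not matched for CpG to the genes of these classes. The ETS word CCGGAAG was in 17 of 66 members (25.8%, exact 95% interval 15.8 to 38.0%), in 11.0% of all autosomal genes and in 19.6% of those in CpG classes 9 and 10; 5 of 9 Sf3, 4 of 11 Snrp, 4 of 11 Srsf, 2 of 13 Prpf, 2 of 19 Hnrnp and 0 of 3 U2af genes held it. The CCAAT box (CCAAT) was in 32 members (48.5%, exact 95% interval 36.0 to 61.1%). It was in 38.6% of all genes, which that interval holds, and in 34.8% of those in classes 9 and 10. By family, 12 of 19 Hnrnp, 8 of 13 Prpf, 5 of 11 Snrp, 4 of 11 Srsf, 3 of 9 Sf3 and 0 of 3 U2af genes held it. The GC box (GGGCGG) was in 39 members (59.1%) against 43.7% of all genes, or 76.4% in classes 9 and 10. The E box (CACGTG) was in 7 members (10.6%) against 7.82% of all genes and 11.6% of those in classes 9 and 10. The TATA box (TATAAA) was in 8 members (12.1%) against 12.7% of all genes and 5.43% of those in classes 9 and 10. The words for NRF1 (GCATGCGC), YY1 (AAGATGGCG), ZNF143 (ACTACAA), BANP (CTCGCGAG) and CRE factors (TGACGTCA) were in 1 to 3 members each, against 1.22 to 3.83% of all genes. None of the words contains another, though neighbouring matches can share letters, and a match describes letters only.

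Other genes of the pathway, listed with earlier results of these data known, had a similar share. Of 176 further symbols listed by function, 165 are autosomal protein-coding genes. A promoter peak, with a median width of 312.5 bp against 422 bp for the members, was listed at 134 of them. This is 81.2% (exact 95% interval 74.4 to 86.9%), against 40.3% of all autosomal genes. In CpG classes 9 and 10, 79 of 95 had a promoter peak (83.2%), against 71.3% of all genes there. All 20 further genes of U2 and branch point recognition had one, including Phf5a, an SF3b subunit (874 bp), Sf1, the branch point binding protein (746 bp), Ddx39 (720 bp) and U2surp (718 bp). Among further snRNP genes it was 25 of 27, with Snrnp70 of U1 (797 bp) and Lsm2 (626 bp) widest and Snu13 and Txnl4b without. Genes of the catalytic complexes had one at 31 of 38, not at Aqr, Cwc22, Dhx38 or Plrg1 among others, with Ppil1 (788 bp) widest. Of genes for snRNP assembly by the SMN complex 12 of 15 had one, of exon junction complex genes 7 of 10 and of SR protein kinase genes 6 of 8. The exact 95% intervals of the exon junction (34.8 to 93.3%) and kinase genes (34.9 to 96.8%) hold the 40.3% of all autosomal genes. Other splicing regulators had a promoter peak at 33 of 47. It was widest at Ptbp1, a repressor of neuronal exons (945 bp), and Pcbp1 (800 bp). Among the 14 without were Celf2, Elavl1, Elavl2 and the epithelial regulator Esrp1.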

How the data were processed

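Chromatin labelled by APEX-PML was profiled in E14 mouse embryonic stem cells: 4 samples, 2 H2O2+ and 2 H2O2-. Per the submitters' processing notes and the design text, the authors trimmed reads with Trimmomatic, mapped them to repeat-masked mm10 with bowtie2 2.3.5.1 and removed blacklisted and greylisted regions with bedtools. How peaks were called, at what threshold, and how replicates were merged is not given in the sources used here. Each peak in the authors' deposited list has a chromosome, start and end, and 0 of the 26496 peaks ran past a chromosome end of GRCm38, the assembly that mm10 names. No column gives a value per sample, so depth per sample is unknown here.

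Gene models came from GENCODE M21, counted by gene ID, and RefSeq starts from GRCm38.p6 (57 of 66 members matched). Starts, windows and shares are as defined with the results, computed in Python 3.11.15 with pandas 2.3.3 and SciPy 1.17.1; the assignment of peaks to genes was tested on simulated data. Intervals of shares are exact (Clopper-Pearson, 95%) and those of medians come from order statistics; both reflect the number of genes alone. No test was made between sets, because the list has no replicates and genes are not replicates. Sequences were read from the GRCm38 genome, outside annotated UTRs, and coding sequence was not left out. The members and lists were chosen with earlier results of these data known. Genes were named by a fixed rule: every member for its promoter peak (1 is counted but not reported by name here), coordinates for the widest and narrowest of each family, the 5 members with the most distal peaks and those with 0, and up to 4 genes of each further list at either end. The contrast of SR and hnRNP genes with the other families, and the use of RefSeq starts, were chosen after seeing the data.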

Additional observations from a re-analysis of the deposited data

How the results depend on the processing

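The count of 54 members with a promoter peak kept within 1.5 times its value with windows of 500 bp or 2 kb, with any annotated or RefSeq start, with midpoints inside the window and with only peaks of at least the median width of 223 bp. It was 34 of 66 when the 20 members whose widest peak lies in another gene's window were counted as without one. Counted in the same way, 6390 of 20807 autosomal protein-coding genes had one, against 8386 as reported. That alternative was not run by family. Among the alternatives that were, the one count that moved by over 1.5 times was that of Snrp, 3 of 11 with peaks of at least the median width. The share of all autosomal genes, 40.3%, was 37.9% within 500 bp, 42.3% within 2 kb, 44.5% with any annotated start and 26.0% with the wider peaks. The median of 2 distal peaks per member was 6 within 100 kb, where it was 3 over all autosomal genes, and 1 within 20 kb or with the wider peaks, where it was 0 over all genes. Without peaks at other genes' promoters it was 1 per member and 1 over all genes. No paired analysis was possible because the deposited list has no values per sample, and for the same reason no replicate could be left out. Since the list has no score, width stood in for a stricter threshold. Whether a member without a peak lacks signal or lies under the threshold cannot be read from the list.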
